A study of Mus musculus with 2 samples.

Results

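The cytochrome P450 genes of the mouse were examined in the prefrontal cortex (PFC) of mice exposed to chronic mild stress (CMS). All mouse symbols that begin with Cyp and a digit were taken, pseudogenes included. The RefSeq gene table held 134 such genes, 34 of them pseudogenes, and 98 of the 134, with 4 pseudogenes, had at least 1 probe on the array. These 98 genes were followed among 37069 gene names on the array. The rule used only the symbols and no measured value.

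Both groups were male C57Bl/6 N sea mice, 9 to 10 weeks old when the experiment began. The C group received ordinary care with 3 to 5 mice in a cage, and the CMS group was housed singly and exposed to varying mild stressors for 4 weeks, so that stressors and single housing cannot be told apart. Total RNA of the PFC was pooled into 1 sample per group, and each pool was hybridized to 1 one-color Agilent mouse array. The design text of the series gives 7 mice in a pool, whereas the methods of the study speak of 10 mice per group. With a single array on each side, the mouse-to-mouse spread is unknown and no test was run. A pool also does not show how many mice carried a signal, and in tissue RNA more cells of a type and more RNA per cell cannot be told apart.

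The pair of arrays shared 1 slide. Spots well above background made up 65.2% on the C array and 65.9% on the CMS array, and none was saturated. Signals are given here as the background-subtracted intensity of the scanner software, scaled to a mean of 2500 on each array, and signals of different probes were not ranked against each other, though sums over lists are given. A probe not well above background is called dim. Where a probe was dim on 1 array only, that side was set to the lowest signal well above background (17.8 for C, 17.6 for CMS) or to its own signal where this was higher, and the ratio is then a bound, written as "at least". Genes dim on both arrays received no ratio. Genes above 2-fold are called higher in the CMS pool, and genes below 0.5 times lower. For 342 probes printed more than once, log2 ratios of the repeated spots well above background on both arrays had an SD of 0.13, an error within the arrays and not between mice. The repeated spots of Cyp2c29 (SD 0.23) and of Cyp27a1 (SD 0.60, dim in the C pool) spread more.

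Cytochrome P450 enzymes are heme proteins that insert an oxygen atom into their substrates, with electrons supplied by cytochrome P450 reductase in the endoplasmic reticulum or by ferredoxin in mitochondria. The Cyp1, Cyp2 and Cyp3 families mainly clear drugs and other foreign compounds and are most abundant in the liver, where nuclear receptors and hepatocyte transcription factors such as Hnf4a drive their genes. The Cyp4 family hydroxylates fatty acids, and the remaining families carry out defined steps in the metabolism of cholesterol, bile acids, steroid hormones, vitamin D and retinoic acid. The brain has P450 enzymes of its own, among them Cyp46a1, the cholesterol 24-hydroxylase of neurons.

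Because Hnf4a is a known regulator of liver P450 genes, the promoters were searched for letters of the type that Hnf4a binds. Whether Hnf4a had a part in the P450 differences was not tested. RefSeq windows of 300 bases on GRCm38.p6 (250 before to 50 after a start site) were at hand for 72 of the 98 members, as 82 windows, and 26 members had none. The letters CAAAGTCCA, read on both strands, were found in 156 of 32851 windows of all genes (0.475%). Among members higher in the CMS pool they were present in 5 of 25 windows (20%). They were in 1 of 41 windows (2.44%, Cyp3a41b) of members with a ratio that were not counted as higher. Among members without a ratio they were in 2 of 16 (12.5%, Cyp8b1 and Cyp2c65). Cyp3a41b rests on a bound of at least 1.84-fold, so that its place among the members not counted as higher is not settled. All 8 matches lay on the strand of the gene, with the first letter 64 to 125 bases before the start site. Below are the 140 bases before the start site, read 5′ to 3′ on the strand of the gene, of the 5 higher members with a match, of Cyp8b1, which has a match but was dim in both pools, and of the neuronal Cyp46a1, which has none. Capitals mark the searched letters.
Cyp3a11 (chr5:145879855-145879994, minus strand): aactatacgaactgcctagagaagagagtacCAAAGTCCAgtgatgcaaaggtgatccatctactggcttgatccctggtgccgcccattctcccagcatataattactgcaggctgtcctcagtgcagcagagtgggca
Cyp3a16 (chr5:145469724-145469863, minus strand): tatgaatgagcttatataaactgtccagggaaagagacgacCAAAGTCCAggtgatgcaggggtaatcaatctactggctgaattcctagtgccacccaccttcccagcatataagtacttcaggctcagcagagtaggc
Cyp2c67 (chr19:39649043-39649182, minus strand): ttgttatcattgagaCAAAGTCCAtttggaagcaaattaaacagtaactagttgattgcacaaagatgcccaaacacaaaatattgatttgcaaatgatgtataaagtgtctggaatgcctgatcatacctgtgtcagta
Cyp2c68 (chr19:39741102-39741241, minus strand): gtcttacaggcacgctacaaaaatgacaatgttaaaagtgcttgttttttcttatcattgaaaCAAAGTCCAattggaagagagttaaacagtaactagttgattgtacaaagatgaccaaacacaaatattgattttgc
Cyp2c70 (chr19:40187287-40187426, minus strand): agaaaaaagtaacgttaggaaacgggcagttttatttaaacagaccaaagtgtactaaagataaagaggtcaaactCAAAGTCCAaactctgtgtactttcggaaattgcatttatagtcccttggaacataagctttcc
Cyp8b1 (chr9:121916306-121916445, minus strand): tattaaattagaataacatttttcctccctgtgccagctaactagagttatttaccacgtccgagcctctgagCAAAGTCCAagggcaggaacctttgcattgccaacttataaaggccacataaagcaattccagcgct
Cyp46a1 (chr12:108334176-108334315, plus strand): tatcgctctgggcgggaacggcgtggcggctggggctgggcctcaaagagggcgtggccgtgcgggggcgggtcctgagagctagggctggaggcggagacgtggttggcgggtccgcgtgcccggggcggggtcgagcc
The first letter of the match was 109 bases before the start site in Cyp3a11, 99 in Cyp3a16, 125 in Cyp2c67, 77 in Cyp2c68, 64 in Cyp2c70 and 67 in Cyp8b1. The pairs Cyp3a11 with Cyp3a16 and Cyp2c67 with Cyp2c68 are close relatives, so that their promoters share ancestry and are not independent examples. Most windows of higher members, 20 of 25, did not hold these letters.

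The TATA box letters TATAAA were in 15 of 25 windows of higher members (60%), in 7 of 41 windows of members with a ratio that were not higher (17.1%) and in 8 of 16 windows of members without a ratio (50%), against 13.6% of all windows. The letters TTGCNNAA, of the type bound by C/EBP factors, were in 5 of 25 (20%), 11 of 41 (26.8%) and 2 of 16 (12.5%) of these windows, against 10.8% of all. Windows are not separate genes, since the 25, 41 and 16 windows stood for 23, 34 and 15 genes. Overlapping windows of Cyp3a25 and of Cyp4f14 that held TTGCNNAA were each counted. Both sets of letters were read on either strand and anywhere in the window. In Cyp3a11, for example, TATAAA lay 234 bases before the start site. A count of TATAAA is therefore not a count of TATA boxes. The letters TATAAA were more frequent in windows of higher members and of members dim in both pools than in those of members with a ratio not counted as higher. For TTGCNNAA the order was the reverse. A match is a description of the letters and not a binding site.

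Of the 98 P450 genes, 76 had a ratio and 22 were dim in both pools. In the CMS pool 31 of the 76 were higher (40.8%), whereas 1.99% of all 27117 gene names with a ratio were higher. No P450 gene was lower, where 0.59% of all gene names were. Among the 58 P450 genes well above background on both arrays 23 were higher (39.7%) and none was lower, beside 1.16% and 0.173% of all gene names measured on both arrays. The median log2 ratio was 0.51 over the 76 genes and 0.38 over the 58, against -0.03 for all gene names in each case. The median hides a division within the family, since 30 of the 58 genes measured on both arrays lay within 0.5 of 0 on the log2 scale and 13 lay above 2.5. The 23 measured genes that were higher ranged from 1.01 to 3.81 (median 2.77), and the 35 measured genes that were not ranged from -0.50 to 0.79 (median 0.04).

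**Figure D1:**
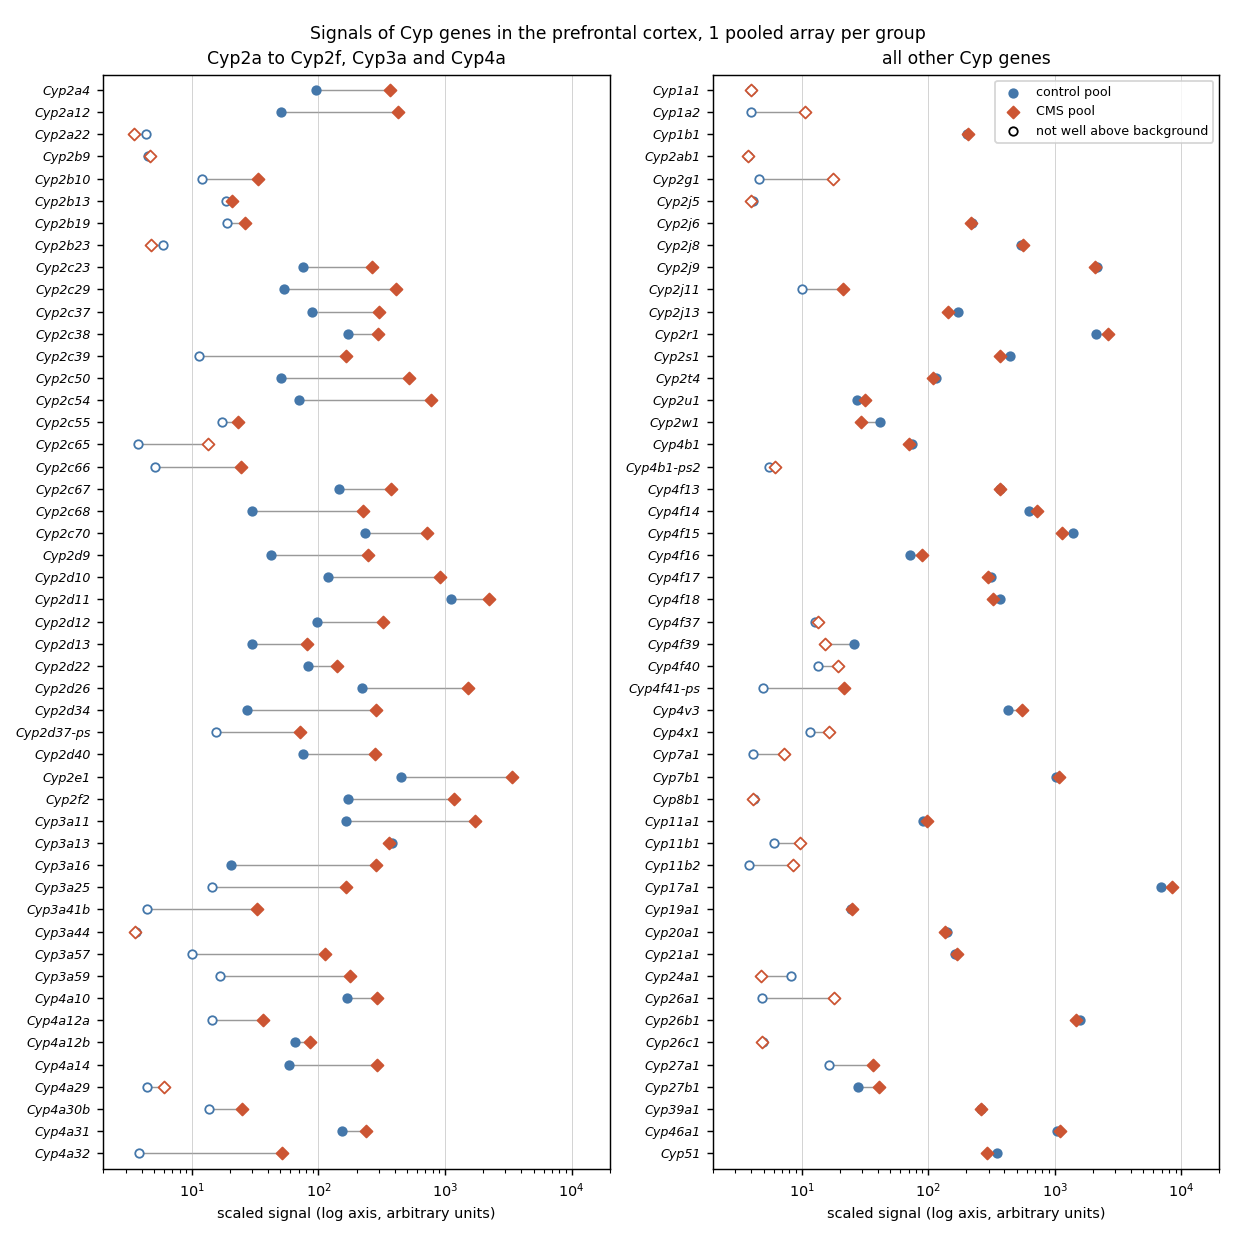
Scaled signal (log axis, arbitrary units) of the 98 P450 genes in the control pool (circles) and the CMS pool (diamonds), with open symbols where the probe was not well above background and a gray line joining both pools. Most genes of the left panel have a CMS diamond far to the right of the control circle, as for Cyp3a16 from 20.2 to 284, while in the right panel the filled symbols nearly coincide, as for Cyp46a1 at 1041 and 1097.

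The higher members fell into few subfamilies. The Cyp2a, Cyp2c, Cyp2d and Cyp3a subfamilies contributed 25 of the 31, and in these 4 subfamilies 6 genes with a ratio were not higher. Cyp2e1 and Cyp2f2 accounted for 2 more, the Cyp4a subfamily for 3 and Cyp27a1 for 1.

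**Figure D2:**
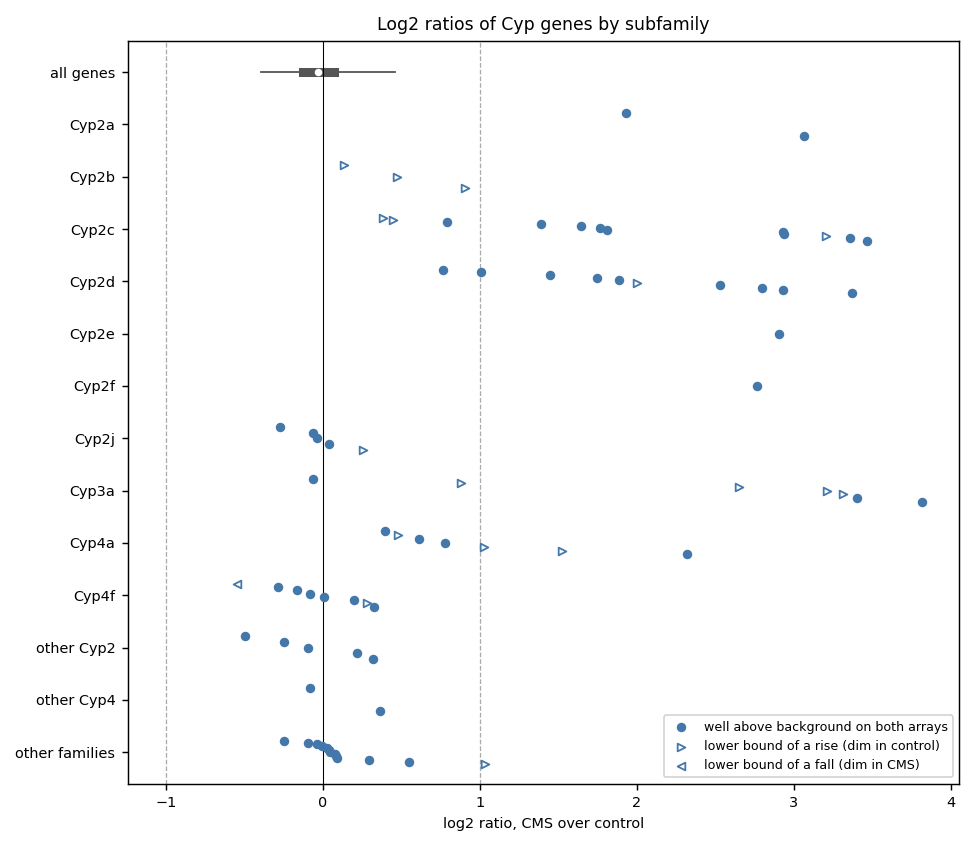
Log2 ratio of CMS over control for the 76 P450 genes with a ratio, 1 symbol per gene, grouped by subfamily, with triangles for bounds, dashed lines at 2-fold, and for all gene names the median (white dot), the middle 50% (thick bar) and the 5th to 95th percentile (thin line). The Cyp2a, Cyp2e and Cyp2f genes and most Cyp2c, Cyp2d and Cyp3a genes lie right of the 2-fold line, and the measured Cyp2j and Cyp4f genes lie between -0.28 and 0.33.

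The Cyp3a enzymes oxidize a very wide range of drugs and steroids in liver and gut. Of 8 genes with a probe, 5 were higher in the CMS pool, 2 were between the thresholds and Cyp3a44 was dim in both pools. The median log2 ratio was 3.21. This value is itself a bound, since 4 of the 7 ratios were bounds, which could only come out above 1-fold. The 3 genes measured on both arrays had a median of 3.40 and ranged from -0.06 to 3.81. Cyp3a11, the main Cyp3a enzyme of the adult mouse liver, had a signal of 164 in the control pool and 1733 in the CMS pool (log2 ratio 3.40). Cyp3a16 went from 20.2 to 284, and its log2 ratio of 3.81, or 14.1-fold, was the highest of the 58 P450 genes measured on both arrays. Bounds do not show whether a gene dim in the C pool differed more. With dim signals taken as they were, the highest log2 ratio of a P450 gene was 3.84. Cyp3a25 was dim in the C group at 14.5 and reached 165 in the CMS group, at least 9.26-fold higher. Cyp3a59 likewise went from a dim 16.7 to 177, at least 9.93-fold, and Cyp3a57 from a dim 9.94 to 112, at least 6.28-fold. All 5 genes were therefore clearly above background in the CMS pool, and 3 of them were not so in the C pool. Cyp3a41b reached 32.7 from a dim 4.45, at least 1.84-fold (log2 ratio 2.88 with the dim signal as it was). Cyp3a13, the member of this subfamily best known from the intestine, had 378 in the control pool and 362 in the CMS pool (log2 ratio -0.06). The promoters of Cyp3a41b and of the dim Cyp3a44 were identical at 92% of positions, though the searched letters were in the first and not in the second.

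The Cyp2c enzymes metabolize drugs and oxidize arachidonic acid to epoxides. Of 13 genes with a probe 12 had a ratio, 9 of them higher, with a median log2 ratio of 1.79. Cyp2c54 went from 70.4 in the C group to 778 in the CMS group (log2 ratio 3.47), Cyp2c50 from 50.7 to 520 (3.36) and Cyp2c68 from 29.6 to 225 (2.93). Cyp2c29, an abundant enzyme around the central veins of the liver lobule, went from 53.1 to 406 (2.93), and Cyp2c39, a retinoic acid hydroxylase, from a dim 11.4 to 164, at least 9.20-fold. In these 5 genes the CMS signal was more than 7 times that of the C pool. Smaller log2 ratios were found for Cyp2c23, the epoxygenase best known from the kidney (75.9 to 265, 1.81), for Cyp2c37 (88.1 to 299, 1.76), for Cyp2c70, which makes muricholic bile acids (232 to 725, 1.65), and for Cyp2c67 (144 to 377, 1.39). Cyp2c38, at 172 and 297, stayed below the 2-fold line with 0.79. Cyp2c55 and Cyp2c66, which lie together with Cyp2c65 at one end of the cluster, were dim in the C group and no more than 24.3 in the CMS group (with the dim signal as it was, the log2 ratio of Cyp2c66 was 2.26), and Cyp2c65 was dim in both.

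The Cyp2d subfamily, which in humans holds the drug enzyme CYP2D6, had a ratio for each gene with a probe. Of these 10 genes, 9 were higher, and the median log2 ratio was 1.94. Cyp2d34 went from 27.3 to 282 (3.37), Cyp2d10 from 120 to 912 (2.93), Cyp2d26 from 219 to 1525 (2.80) and Cyp2d9, a male-biased steroid hydroxylase of the liver, from 42.3 to 245 (2.53). Cyp2d40 (75.9 to 281, 1.89), Cyp2d12 (97.1 to 325, 1.74) and Cyp2d13 (30.0 to 81.7, 1.45) differed less. The pseudogene Cyp2d37-ps went from a dim 15.6 to 71.2, at least 4.0-fold. With normexp, Cyp2d13 (0.74) and Cyp2d37-ps (0.61) lay under 2-fold. Close to the threshold, Cyp2d11 went from 1104 to 2220 (1.01) and fell to between 0.83 and 0.99 with median scaling, no scaling or normexp background correction, and Cyp2d22, a member known in brain, had 83.0 and 141 (0.77). By the probe used, all 9 members of this subfamily measured on both arrays lay above 0, and their log2 ratios covered a range from 0.77 to 3.37.

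Cyp2e1, which oxidizes ethanol and small solvents, had a signal of 449 in the control pool and 3362 in the CMS pool (log2 ratio 2.90), and its other probe gave 102 and 792 (2.95). Cyp2f2, a naphthalene-activating enzyme of liver and airway club cells, went from 172 to 1169 (2.77). In the Cyp2a subfamily Cyp2a12, a bile acid and steroid hydroxylase, went from 50.6 to 422 (3.06) and Cyp2a4, a testosterone hydroxylase, from 95.7 to 365 (1.93), while Cyp2a22 was dim in both pools. The control pool, too, had these 4 genes well above background.

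No Cyp2b or Cyp1 gene was counted as higher. In the Cyp2b subfamily, whose member Cyp2b10 is the classical target of the receptor Nr1i3, 3 of 5 genes had a ratio, all as bounds under 2-fold, which do not show how large the differences were. Cyp2b10 went from a dim 11.9 to 33.3, at least 1.87-fold (log2 ratio 1.48 with the dim signal as it was), Cyp2b19 from a dim 18.8 to 26.1, at least 1.39-fold, and Cyp2b13 from a dim 18.7 to 20.6, at least 1.1-fold. Cyp2b9 and Cyp2b23 were dim in both pools. The Cyp2b signals stayed close to background also in the CMS pool. Cyp1a1 and Cyp1a2, which the receptor Ahr induces, were dim in both pools (4.01 and 3.99 for Cyp1a1, 4.0 and 10.5 for Cyp1a2), and Cyp1b1, found in vessels and other tissues outside the liver, had 202 and 208 (log2 ratio 0.04).

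Several of the Cyp2j epoxygenases are made in brain, heart and kidney, and the 4 measured on both arrays differed by less than 2-fold. Of 6 genes 5 had a ratio, and their median log2 ratio was -0.04. Cyp2j9, known from the brain, had 2165 in the control pool and 2077 in the CMS pool (-0.06), Cyp2j8 had 541 and 556 (0.04), Cyp2j6 222 and 217 (-0.04), and Cyp2j13 173 and 143 (-0.27). Cyp2j11 went from a dim 10.2 to 21.3, at least 1.20-fold (log2 ratio 1.07 where the dim signal was taken as it was), and Cyp2j5, a liver and kidney member, was dim in both pools. Of the remaining Cyp2 genes with a ratio, the log2 ratio ranged from -0.50 for Cyp2w1 (41.4 and 29.3) to 0.32 for Cyp2r1, and Cyp2s1, Cyp2t4 and Cyp2u1 lay between them at -0.25, -0.09 and 0.21.

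In the Cyp4 family the Cyp4a and Cyp4f subfamilies differed from each other in their log2 ratios. The Cyp4a genes encode fatty acid omega-hydroxylases under the control of the receptor Ppara, and 3 of the 7 with a ratio were higher, with a median log2 ratio of 0.78. Cyp4a14 went from 58.0 to 289 (2.32), Cyp4a32 from a dim 3.83 to 51.2, at least 2.88-fold, and Cyp4a12a from a dim 14.3 to 36.3, at least 2.04-fold. Cyp4a12a stood at the threshold and fell below it with 4 of the alternative settings, to 0.45 on the log2 scale at the lowest, and Cyp4a32 fell to 0.76 with normexp. Cyp4a10 had 169 and 289 (0.78), Cyp4a31 155 and 236 (0.61) and Cyp4a12b 64.7 and 85.3 (0.40), Cyp4a30b was at least 1.39-fold higher, and Cyp4a29 was dim in both pools. The 4 Cyp4a genes measured on both arrays had log2 ratios from 0.40 to 2.32. The 3 bounds could only come out above 1-fold, because a bound under 1-fold was given no ratio.

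The Cyp4f subfamily, which inactivates leukotrienes and hydroxylates long fatty acids, had 8 genes with a ratio, none of them counted as higher or lower, and a median log2 ratio of -0.04. The pseudogene Cyp4f41-ps went from a dim 4.99 to 21.7, at least 1.22-fold (log2 ratio 2.12 with the dim signal as it was). Cyp4f15 had 1388 and 1141 (-0.28), Cyp4f14 631 and 725 (0.20) and Cyp4f13 368 and 371 (0.01), and Cyp4f16, Cyp4f17 and Cyp4f18 lay between -0.17 and 0.33. Cyp4f39 was the lowest of all P450 genes, with 25.7 in the control pool and a dim 15.2 in the CMS pool, a log2 bound of -0.55. Cyp4b1 was at 74.7 and 70.6 (-0.08) and Cyp4v3 at 426 and 547 (0.36), and Cyp4x1, cloned from brain, was dim in both pools.

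Genes of sterol and bile acid metabolism were mostly level. Of 7 genes 5 had a ratio and 1 was higher, with a median log2 ratio of 0.08. Cyp46a1 had 1041 in the control pool and 1097 in the CMS pool (0.08), Cyp7b1, the oxysterol 7-alpha-hydroxylase, 1028 and 1089 (0.08), Cyp39a1, a 24-hydroxycholesterol hydroxylase, 263 and 262 (-0.01), and Cyp51, the demethylase of cholesterol synthesis, 350 and 294 (-0.25). The enzymes that define the bile acid route of the liver were at background, since Cyp7a1, its rate-limiting step, had 4.10 and 7.26 and Cyp8b1, the 12-alpha-hydroxylase, 4.17 and 4.14, all dim. Cyp27a1, the mitochondrial sterol 27-hydroxylase, went from a dim 16.5 to 36.4, at least 2.05-fold, and fell to between 0.31 and 0.998 on the log2 scale with normexp, no scaling or quantile normalization. Thus many liver P450 genes of the Cyp2 and Cyp3 families were well above background in the CMS pool while Cyp7a1 and Cyp8b1 were not.

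None of the steroidogenic enzymes passed a threshold, and their median log2 ratio was 0.07 over the 4 with a ratio. Cyp11a1, the side-chain cleavage enzyme, had 91.0 and 97.0 (0.09), Cyp17a1, the 17-alpha-hydroxylase, 6874 and 8416 (0.29), Cyp19a1, the aromatase, 24.7 and 25.2 (0.03), and Cyp21a1, the 21-hydroxylase, 164 and 169 (0.04). Cyp11b1 and Cyp11b2, the last steps of corticosterone and aldosterone synthesis in the adrenal cortex, were dim in both pools. Genes of vitamin D and retinoic acid metabolism had a median of 0.32 over the 3 with a ratio. Cyp2r1, a vitamin D 25-hydroxylase, had 2120 and 2646 (0.32), Cyp27b1, the 1-alpha-hydroxylase, 27.9 and 40.9 (0.55), and Cyp26b1, the retinoic acid hydroxylase of the brain, 1570 and 1470 (-0.10). Cyp24a1, Cyp26a1 and Cyp26c1 were dim in both pools, and the orphan Cyp20a1 had 140 and 136 (-0.04).

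Some P450 genes are known from the brain, namely Cyp46a1, Cyp7b1, Cyp19a1, Cyp26b1, Cyp4x1, Cyp2j9, Cyp2d22, Cyp51 and Cyp1b1. Of these 9, 8 were well above background on both arrays, 0 passed 2-fold and the median log2 ratio was 0.04. Apart from Cyp2d22 at 0.77, they lay between -0.25 and 0.08.

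Within the liver, P450 genes differ by zone and by sex. Genes of the pericentral zone with a ratio, which were Cyp2e1, Cyp2c29 and Cyp2c37, were all higher, with a median log2 ratio of 2.90, while the other pericentral genes, Cyp1a2 and Cyp7a1, were dim in both pools. Of the periportal genes Cyp2f2 was higher and Cyp17a1 was not. Genes with male-biased liver expression numbered 5 with a ratio, of which Cyp2d9 and Cyp4a12a were higher and Cyp4a12b, Cyp2u1 and Cyp7b1 were not, with a median of 0.40. Of 6 female-biased genes with a probe, Cyp3a16 and Cyp2a4 were higher, Cyp2b13 and Cyp3a41b had bounds under 2-fold and Cyp2b9 and Cyp3a44 were dim in both pools. Higher members were thus found in both zones and among genes of either sex bias.

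Most members rested on 1 spot per array (96 of 98), and the exceptions show the error within an array. Cyp2c29 had 9 usable spots on the C group array, from 43.9 through a median of 49.1 to 74.8, and 10 on the CMS array, from 387 through 404 to 429. No spot of the C pool reached the CMS spots, and the log2 ratio over spots was 2.96 ± 0.23 (SD). Cyp27a1 had 10 spots on each array, from 7.75 through 16.4 to 25.8 in the C group and from 24.5 through 35.0 to 49.7 in the CMS group, where the ranges overlapped. Its log2 ratio over spots was 1.19 ± 0.60 (SD), and 2 of the 10 spots in the C group were well above background against 10 of 10 in the CMS group. Spots are repeats within an array and not mice.

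**Figure D3:**
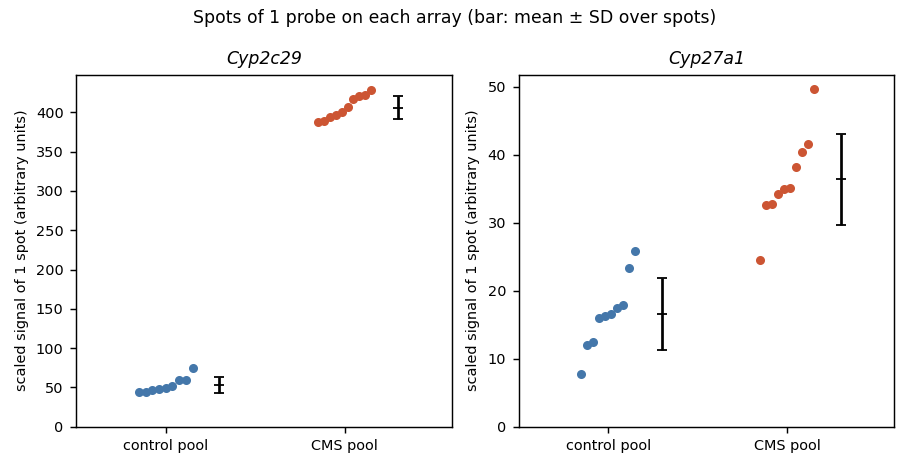
Scaled signal of each spot (arbitrary units) of Cyp2c29 (left) and Cyp27a1 (right) in the control and CMS pools, with the mean ± SD over spots as a bar. The Cyp2c29 spots do not overlap between pools (highest control spot 74.8, lowest CMS spot 387), and those of Cyp27a1 do (25.8 and 24.5).

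More than 1 probe was present for 17 members, and 12 of them had a ratio from more than 1. The probes differed by at most 1 on the log2 scale in 6 genes and by more in the other 6. Cyp2d34 differed most, with 3.37 for the probe used and -0.38 for the other, which had 34.6 in the control pool and 26.6 in the CMS pool. The probes of Cyp2c54 gave 3.47 and bounds of 1.97 and 0.48, those of Cyp2c67 1.39 and 3.44, and those of Cyp3a11 3.40 and 1.33. Cyp3a13, which was level by the probe used, had another probe that went from a dim 12.1 to 53.5, a bound of 1.59, and Cyp4a10 had one that went from a dim 21.3 to 131, a bound of 2.63. Genes of these subfamilies are near copies of each other, so that a probe may also bind transcripts of a neighbor, and signals of single Cyp2c, Cyp2d, Cyp3a and Cyp4a genes are uncertain to that extent. Counted by probe, 39 of 91 probes with a ratio were higher and 0 were lower. The share over all probes of the array was not counted, and probes that may share a signal are not separate evidence.

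**Figure D4:**
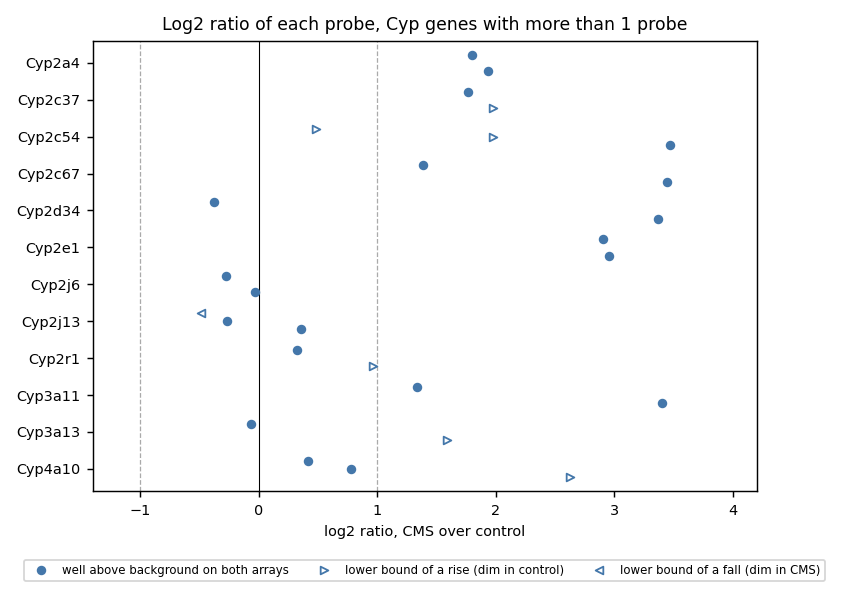
Log2 ratio of CMS over control of each probe for the 12 P450 genes with more than 1 probe with a ratio, with triangles for bounds and dashed lines at 2-fold. The probes of Cyp2a4, Cyp2c37 and Cyp2e1 lie together, while those of Cyp2d34 lie at -0.38 and 3.37.

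In the genome most P450 genes lie in clusters. With Cyp genes under 500 kb apart joined, 8 clusters of 3 or more genes held 70 of the members with a probe, of which 28 were higher, and 28 members lay outside, of which 3 were higher (Cyp2c23, Cyp2e1 and Cyp27a1). The Cyp2d cluster had 9 higher of 10, the Cyp2c cluster 8 of 12, the Cyp3a cluster 5 of 7, and the cluster of Cyp4a, Cyp4b and Cyp4x genes 3 of 11. The cluster that holds Cyp2a, Cyp2b, Cyp2f, Cyp2g, Cyp2s and Cyp2t genes had 3 higher of 12, which were Cyp2a4, Cyp2a12 and Cyp2f2, with level Cyp2s1 and Cyp2t4 at its ends. The Cyp2j cluster had 0 of 6, the Cyp4f cluster 0 of 9 and the cluster of Cyp1a1, Cyp1a2 and Cyp11a1 0 of 3.

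Genes that serve P450 enzymes in every tissue were level. All 10 genes of electron transfer and heme metabolism were measured on both arrays, none passed 2-fold, and the median log2 ratio was -0.07. Por, the cytochrome P450 reductase, had 6829 in the control pool and 6071 in the CMS pool (-0.17), Cyb5a, cytochrome b5, 12299 and 13326 (0.12), and Alas1, the first enzyme of heme synthesis, 10828 and 10817 (0.00). Among genes for receptors and transcription factors that control P450 genes, 11 had a ratio and 2 were higher. Hnf4a went from 45.1 to 529 (3.55), and Nr1h4, the bile acid receptor, from a dim 23.5 to 77.7, at least 3.31-fold. Nr1i2, which induces Cyp3a genes, went from a dim 3.6 to 28.4, at least 1.6-fold, and Nr5a2 was at least 1.94-fold higher. Ahr (0.07), Ppara (-0.03), Rxra (0.14), Cebpa (0.28) and Nr1i3 (-0.18) were level by the probe used, and Nr0b2 was dim in both pools. The other probe gave 0.67 for Nr1i3 and -0.32 for Rxra, under 2-fold but with the opposite sign.

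Among the cell type lists, the hepatocyte list differed most between the pools. Of 20 hepatocyte markers without a Cyp symbol, all measured on both arrays, 17 were higher in the CMS pool and the median log2 ratio was 3.15, with Alb at 1509 and 17486 (3.53). The exceptions were Ass1 (0.90), Tat (0.74) and Slc10a1 (0.09). Slc10a1 had another probe with a log2 ratio of 1.02, so that its probes disagreed on the 2-fold line. The summed signal of the list was 517203 in the control pool and 660525 in the CMS pool, and Slc10a1 alone had 501222 and 534088. All 20 hepatocyte markers and 23 of the 31 higher P450 genes exceeded background in the control pool too. The part of hepatocyte RNA in the P450 differences was not tested.

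Markers of other liver cells differed less. Of 5 Kupffer cell markers 4 had a ratio and Clec4f was higher (at least 2.20-fold), with a median of 0.70 and Timd4 dim in both pools, and their summed signal was 314 in the control pool and 455 in the CMS pool. Of 5 markers of the liver sinusoidal endothelium Stab2 (1.09) and Clec4g (1.15) were higher, with a median of 0.33 and summed signals of 185 and 295. Markers of other organs that make P450 enzymes had medians of -0.24 for the kidney proximal tubule (3 of 5 with a ratio), -0.05 for the intestine (4 of 5, with Fabp2 higher and Sis lower), -0.14 for the lung (2 of 4) and 0.00 for the adrenal cortex and gonad (2 of 5). The choroid plexus list had 0.11 and the erythroid list 0.49, with none called. The markers of the labeled tissue were present and level, with 5 of 5 measured and none called in each of the lists for neurons (-0.03), astrocytes (0.03), oligodendrocytes (-0.15), microglia (0.05) and brain endothelium with pericytes (0.02).

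**Figure D5:**
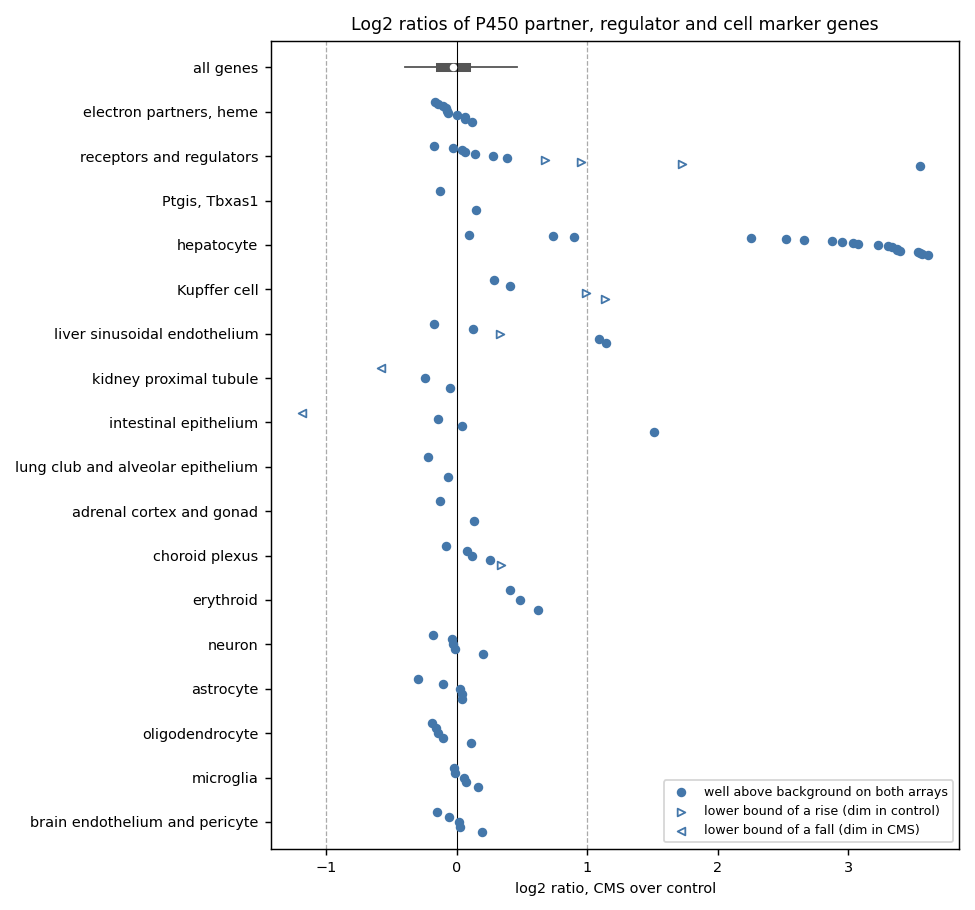
Log2 ratio of CMS over control of genes that serve or control P450 enzymes and of cell markers, 1 symbol per gene, with triangles for bounds, dashed lines at 2-fold, and for all gene names the median, middle 50% and 5th to 95th percentile. The hepatocyte list lies mostly above 2.2 together with Hnf4a (3.55), whereas the electron partners and the brain cell lists lie near 0.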

How the data were processed

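Pooled PFC RNA of either group was hybridized to 1 Agilent SurePrint array. The authors deposited scanner tables of Agilent Feature Extraction 10.10.1.1, whose processed signal intensities are linear, background-subtracted and without scaling between arrays, and a value table of intensities that differed from them by 1 factor per array (1.80 and 2.05, over signals above 100) and was used as an alternative only.

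Here, control spots were dropped, as were the spots marked as outliers (130 for C, 133 for CMS), and repeated spots were averaged. A probe with under 0.5 of its spots well above background was called dim. Signals were scaled so that the mean over probes was 2500, dim probes were given bounds, and the log2 of the CMS signal over the control signal was formed. Each gene was represented by its probe of highest mean log2 signal. Accessions, without versions, were named through the RefSeq table of GRCm38.p6, which gave 30740 of 59305 spots a symbol. The grid of the array uses another build, so that gene order and promoters come from RefSeq alone. All Cyp genes with a probe could be named. Signals in both pools were given for members above 2-fold, for role lists and for members whose probes differed by over 1, and other members by range.

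The members, gene lists and thresholds were chosen with earlier results of these data known. With 1 array per group no test, SD between mice or leave-one-out analysis could be made, slide could not enter a fit, and precision is limited by the number of arrays. Alternatives were scaling to the 75th percentile, median or trimmed mean, no scaling, quantile normalization, normexp with an offset of 50 and quantile normalization (on median spot intensities), the deposited table, leaving out the bound, requiring background to be exceeded on both arrays, leaving out the filter, retaining outlier spots, averaging all probes of a gene, and counting probes. Medians were called moved past the error that follows from the SD between spots. One listed regulator is not reported here. Calling was tested on simulated data. Tools were Python 3.11.15, numpy 2.4.6, pandas 2.3.3, matplotlib 3.10.9, R 4.3.3 and limma 3.58.1.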

Additional observations from a re-analysis of the deposited data

How the results depend on the processing

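The number of P450 genes higher in the CMS pool was 31 and ranged from 23 to 41 over the alternatives, and none was lower under any of them. It was 29 with scaling to the median (without Cyp2d11 and Cyp4a12a), 28 with no scaling (without Cyp27a1, Cyp2d11 and Cyp4a12a), 29 with quantile normalization (without Cyp27a1 and Cyp4a12a) and 25 with normexp (without Cyp27a1, Cyp2d11, Cyp2d13, Cyp2d37-ps, Cyp4a12a and Cyp4a32). It was 36 with no bound (with Cyp2b10, Cyp2c66, Cyp2j11, Cyp3a41b and Cyp4f41-ps added), 41 with no filter (with these and Cyp11b2, Cyp1a2, Cyp26a1, Cyp2c65 and Cyp2g1 added), 23 for probes above background on both arrays, where the 8 bounds do not enter, and 32 for the mean of all probes, where Cyp4a10 was added. For all gene names the count of 539 became 265 with normexp, 294 where both arrays had to exceed background, 775 without the bound and 1493 without the filter. No P450 gene above 2-fold changed side, while the medians of Cyp4f and of the sterol, steroidogenic and brain lists, all near 0, changed sign under settings named below. Without scaling the median of all gene names moved from -0.03 to -0.20.

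The median log2 ratio of the P450 genes, 0.51, was 0.54 with the 75th percentile, 0.48 with the median, 0.38 with no scaling, 0.48 with quantile normalization, 0.34 with normexp, 0.78 with no bound, 0.38 where both arrays had to exceed background, 0.54 without the filter and 0.63 for the mean of all probes. With no scaling the medians were 2.32 for Cyp2a, 1.61 for Cyp2c, 1.77 for Cyp2d, -0.21 for Cyp2j, 3.04 for Cyp3a, 0.60 for Cyp4a and -0.21 for Cyp4f, and in the lists -0.10 for sterol and bile acid, -0.11 for steroidogenic, 0.15 for vitamin D and retinoic acid and -0.14 for genes known in brain. With normexp they were 1.81 for Cyp2a, 0.031 for Cyp2b, 1.31 for Cyp2c, 1.34 for Cyp2d, 1.44 for Cyp3a, 0.47 for Cyp4a, -0.020 for steroidogenic and 0.11 for vitamin D and retinoic acid. With no bound they were 2.03 for Cyp2c, 2.04 for Cyp2d, 3.40 for Cyp3a and 0.85 for Cyp4a. Above background on both arrays they were 1.89 for Cyp2d, 3.40 for Cyp3a and 0.69 for Cyp4a, and Cyp2b had no value. With no filter they were 1.93 for Cyp2a, 0.14 for Cyp2b, 2.04 for Cyp2d, 3.40 for Cyp3a, 0.033 for Cyp4f, 0.19 for steroidogenic and 0.15 for vitamin D and retinoic acid. For the mean of all probes they were 1.92 for Cyp2c, 1.82 for Cyp2d, 2.65 for Cyp3a, 1.03 for Cyp4a and 0.55 for vitamin D and retinoic acid. Without scaling, the log2 ratios of genes measured on both arrays all shift by 1 constant, set by the scaling factors of 0.853 for C and 0.963 for CMS. The cause of the other shifts was not tested, except that fewer or more genes enter where the filter changes. No paired analysis was possible because each group has 1 array, and no replicate could be left out. Dim probes have only bounds or no ratio.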

Other observations

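Between the P450 genes of the 8 clusters lie genes of other families, and 27 of these had a ratio. None was higher or lower by 2-fold, and their median log2 ratio was -0.04. Of all gene names with a ratio 1.99% were higher and 0.59% lower. At these shares a set of 27 genes would hold few or no calls. Of the 27, 17 lay in the Cyp2d cluster, among them Ndufa6, a subunit of respiratory complex I (11041 in the control pool and 11296 in the CMS pool, 0.03), and Srebf2, a regulator of cholesterol synthesis (467 and 451, -0.05). The highest was 4930407I10Rik, which went from a dim 5.52 to 28.1, at least 1.58-fold. This cluster is long because it reaches out to the distant pseudogene Cyp2d67-ps.

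Ptgis, the prostacyclin synthase, and Tbxas1, the thromboxane synthase, are P450 enzymes without a Cyp symbol. Ptgis had 197 in the control pool and 180 in the CMS pool (-0.13), and Tbxas1 had 154 and 171 (0.15).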
